A study of Homo sapiens with 10 samples.

Results

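RNA-Seq levels of 40 genes that act in ribosome biogenesis were followed across 10 libraries of human hepatocellular carcinoma (HCC) cell lines. The genes came from a list of symbols covering RNA polymerase I, small nucleolar ribonucleoproteins (snoRNPs), the small-subunit processome, 40S and 60S assembly factors and multifunctional nucleolar proteins. All 40 symbols matched 1 Ensembl gene each among the 58302 genes listed. The 5 SK-hep1 libraries were mock control cells and cells overexpressing PSPC1, PSPC1/PTK6, PSPC1-Y523F or PSPC1-Y523F/PTK6. PSPC1 is a paraspeckle RNA-binding protein, PTK6 is a nonreceptor tyrosine kinase, and Y523F replaces a C-terminal tyrosine of PSPC1 by phenylalanine. The labels call this mutant only a YF mutation. The 3 Mahlavu libraries were mock control cells and cells labelled as overexpressing PSPC1-CT131, a C-terminal stretch of PSPC1, or Mut-NLS-CT131, whose nuclear localization signal (NLS) is mutated. The label of the last names an NLS mutation of PSPC1, and the study's plasmid methods place it in PSPC1-CT131. The 2 Huh-7 libraries were untreated cells and cells given 10 ng/ml hepatocyte growth factor (HGF) for 48 h. Each condition had 1 library, so no difference between conditions could be tested, and the labels do not say whether a transfected culture was 1 clone or a pool.

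Ribosomes are built mainly in the nucleolus. RNA polymerase I transcribes a long precursor rRNA there, snoRNPs guide its methylation and pseudouridylation, the processome releases the part that becomes the small subunit, and separate factors mature the 40S and 60S particles before export. The genes of these factors are known to follow growth signals and the transcription factor MYC, and fast-growing tumor cells commonly express them highly.

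Levels are given as FPKM, the reads on a gene scaled to its length and to the depth of the library, as deposited. Differences between libraries are log2 differences of quantile-normalized FPKM + 1, for genes that averaged 1 FPKM or more in the pair compared, and a gene was counted as higher or lower when it lay at least 1.5-fold away. The libraries held 15245935 to 24278662 reads on genes, and the 40 genes together took 0.379% of them in PSPC1-CT131 cells and 0.658% in SK-hep1 mock cells, the lowest and the highest share. In bulk samples, fewer cells of a type and less RNA per cell cannot be told apart. PSPC1 had no read in SK-hep1 mock. It had 7.01 FPKM with PSPC1, 26.4 with PSPC1/PTK6, 2.28 (71 reads) with PSPC1-Y523F and 70.9 with PSPC1-Y523F/PTK6. The level of PSPC1 thus differed between these libraries as well as its form. PTK6 was highest in SK-hep1 where it was overexpressed, at 16.6 FPKM with PSPC1/PTK6 and 10.5 with PSPC1-Y523F/PTK6. The PSPC1 gene had 47.3 FPKM in Mahlavu mock but 30.8 and 22.4 under the labels PSPC1-CT131 and Mut-NLS-CT131, so the gene-level values go against overexpression there, and no value per part of the gene was used to tell the constructs from the cells' own PSPC1. Of 7 hepatocyte markers, 7 reached 1 FPKM in both Huh-7 libraries but only SERPINA1 did in each SK-hep1 and Mahlavu library, where ALB, AFP and HNF4A stayed below 1 FPKM. Of 6 endothelial markers, 0 reached 1 FPKM in any SK-hep1 or Mahlavu library.

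RRP9, RRP12 and RRP1B set the libraries labelled PSPC1 and PSPC1-Y523F/PTK6 apart from the other SK-hep1 and Mahlavu libraries. RRP9, a protein of the U3 snoRNP, stood at 2.54 FPKM in mock, 53.3 with PSPC1, 1.73 with PSPC1/PTK6, 3.28 with PSPC1-Y523F and 77.8 with PSPC1-Y523F/PTK6. In the other lines it stood at 1.45 FPKM in Mahlavu mock, 0.768 with PSPC1-CT131 and 1.43 with Mut-NLS-CT131, and in Huh-7 at 17.9 FPKM untreated and 16.96 with HGF. RRP12, a factor of 40S precursor export, stood at 2.17 FPKM in mock, 52.6 with PSPC1, 1.74 with PSPC1/PTK6, 3.67 with PSPC1-Y523F and 82.8 with PSPC1-Y523F/PTK6. Only the same 2 SK-hep1 libraries were high for it, with 2.96 FPKM in Mahlavu mock, 2.51 with PSPC1-CT131 and 3.26 with Mut-NLS-CT131, while Huh-7 cells had 23.4 FPKM untreated and 22.9 with HGF. RRP1B, a nucleolar protein of 60S precursors, stood at 0.408 FPKM in mock, 10.9 with PSPC1, 0.284 with PSPC1/PTK6, 0.644 with PSPC1-Y523F and 10.2 with PSPC1-Y523F/PTK6 with the same 2 libraries high. It stood at 0.626 FPKM in Mahlavu mock, 0.353 with PSPC1-CT131 and 0.366 with Mut-NLS-CT131, and at 18.7 FPKM untreated and 16.6 with HGF in Huh-7. The reads behind RRP9 were 87 in mock, 1701 with PSPC1, 65 with PSPC1/PTK6, 109 with PSPC1-Y523F and 2982 with PSPC1-Y523F/PTK6. On the scale of read shares, the 95% counting interval of the log2 ratio of PSPC1 to mock ran from 4.08 to 4.72 for RRP9, from 4.29 to 4.93 for RRP12 and from 4.30 to 5.21 for RRP1B.

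The 3 genes lie on different chromosomes, RRP9 at chr3:51933430-51941941, RRP12 at chr10:97356358-97426076 and RRP1B at chr21:43659548-43696079 (GRCh38). Genes outside the list moved with them. After these values were seen, all 8 genes whose symbol is RRP and a number were looked up (RRP1, RRP1B, RRP7A, RRP8, RRP9, RRP12, RRP15 and RRP36, named for ribosomal RNA processing). In each of the 8, the lower of the PSPC1 and PSPC1-Y523F/PTK6 libraries held 7.10 to 16.3 times the reads per 1000000 of the highest of the other 6 SK-hep1 and Mahlavu libraries. Summed over the 8 genes, reads per 1000000 were 456 with PSPC1 and 588 with PSPC1-Y523F/PTK6, against 18.4 to 33.2 in the other 6 libraries and 343 and 318 in untreated and HGF-treated Huh-7. Of 11804 genes at 1 or more reads per 1000000 in both high libraries, 13 were at least 5 times above all other 6 libraries, and these 13 held all 8 RRP genes, MT-RNR1, MT-CYB, MT-ND5, an unnamed gene and SERHL, which overlaps RRP7A on the other strand. The same ratio was 0.222 to 1.10 for the other 37 ribosome biogenesis genes, with a median of 0.562. A lowest value over a highest value tends to fall below 1 for an unchanged gene, so these ratios alone do not show lower levels. The mitochondrial rRNA genes MT-RNR1 and MT-RNR2 together took 0.270% of the reads with PSPC1 and 0.107% with PSPC1-Y523F/PTK6, 0.00286% to 0.0272% in the other 6 libraries, and 0.606% and 0.686% in Huh-7. Genes outside the 13 were also high in both libraries. FTSJ1 had 103 FPKM with PSPC1 and 128 with PSPC1-Y523F/PTK6, against 19.6 to 23.85 in the other 6. METTL25B had 31.9 and 21.85, against 3.25 to 8.20. MRM2, MRM3 and MT-CO1, looked up with them, were not above all other 6 in both libraries. The 8 RRP genes share a name for rRNA processing and lie on 7 chromosomes. No source used here describes a step that treats genes by name or by rRNA annotation, and RNA levels in the cells cannot be told apart from a difference in how single libraries or their tables were made, so the folds of RRP9, RRP12 and RRP1B may not be changes of expression. The part of the mitochondrial rRNA level in these values was not tested. Values without these 3 genes are therefore given beside the main ones, and RRP1B passed the filter in SK-hep1 only through its high libraries.

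**Figure D1:**
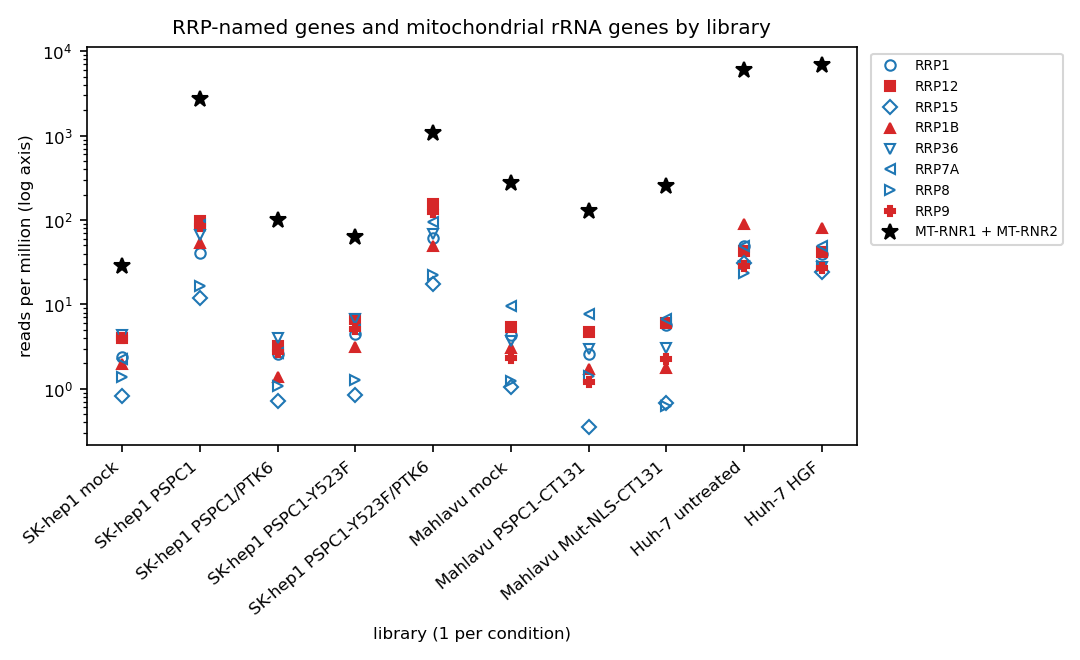
Reads per 1000000 (log axis) of the 8 genes named RRP and a number, and of MT-RNR1 and MT-RNR2 summed (stars), in each of the 10 libraries. Filled red symbols are the ribosome biogenesis genes RRP9, RRP12 and RRP1B, open blue symbols are the other RRP genes, and the SK-hep1 PSPC1 and PSPC1-Y523F/PTK6 libraries lie above the other SK-hep1 and Mahlavu libraries for every symbol.

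Without the 3 RRP genes, the remaining genes sat lower than the bulk of the transcriptome with PSPC1, with PSPC1/PTK6 and with PSPC1-Y523F/PTK6, and close to it with PSPC1-Y523F. With PSPC1 against mock the 40 genes had a median difference of -0.46 (-0.47 without the 3), where all genes tested had -0.03. Of them, 10 were lower, beside 8.66% of the 12411 genes tested, and 3, the RRP genes, were higher, beside 9.57%. With PSPC1/PTK6 the median over the 39 that passed the filter was -0.35 (-0.34 without RRP9 and RRP12) against -0.04 for all genes, and 12 were lower, beside 12.8%, while 0 were higher, beside 12.4%. With PSPC1-Y523F the median was -0.02 (-0.04 without RRP9 and RRP12) against -0.01 for all genes, turning to 0.03 once GC content and length were taken out, with 2 lower and 2 higher (1 without RRP12) beside 9.33% in each direction. That split was 1 higher and 2 lower on FPKM as deposited and with TMM factors. With PSPC1-Y523F/PTK6 the median was -0.19 (-0.21 without the 3) against -0.04, with 6 lower beside 7.1% and 3 higher, again the RRP genes, beside 8.19%. These 4 comparisons share the mock library, so a low or high value in it enters all 4. The 4 construct libraries also differ in PSPC1 level, lowest with PSPC1-Y523F at 2.28 FPKM. Level and form of PSPC1 cannot be told apart here.

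**Figure D2:**
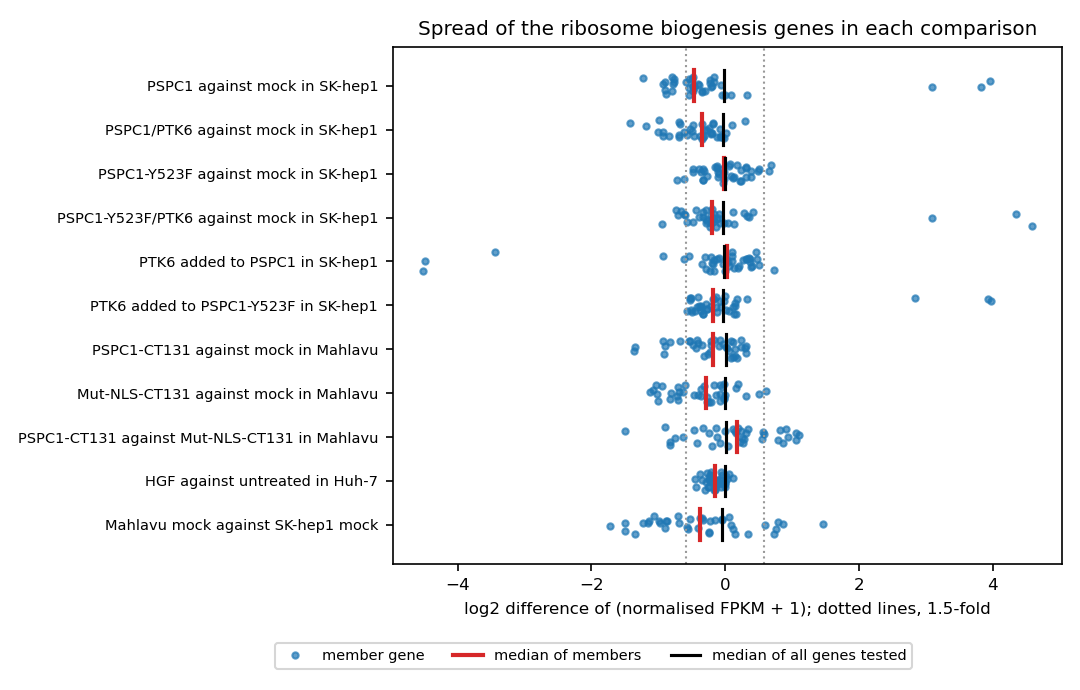
Log2 difference of normalized FPKM + 1 for each ribosome biogenesis gene that passed the filter (blue points), in the 11 comparisons, with the median of these genes (red) and of all genes tested (black). The red line lies left of the black one by more than 0.1 in all rows but PSPC1-Y523F against mock, PTK6 added to PSPC1 and PSPC1-CT131 against Mut-NLS-CT131, and the 3 points far from the rest in 4 rows are RRP9, RRP12 and RRP1B.

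MRTO4 lay farthest down with both wild-type PSPC1 constructs. This placeholder for a ribosomal stalk protein in 60S precursors differed from mock by -1.23 with PSPC1, -1.42 with PSPC1/PTK6, -0.49 with PSPC1-Y523F and -0.66 with PSPC1-Y523F/PTK6. After MRTO4, the genes farthest down with PSPC1 were NOLC1 (-0.93), NOP56 (-0.90), NOP16 (-0.89), NPM1 (-0.89), WDR43 (-0.80), NAT10 (-0.79) and NOP58 (-0.78). Box C/D snoRNP genes thus stood among them, but FBL, the methyltransferase of the same particle, was at 0.32, the highest of the 37 genes other than the RRP genes. With PSPC1/PTK6 the next after MRTO4 were NOP16 (-1.19), POLR1A (-1.003), BOP1 (-0.99), PPAN (-0.94), NOP56 (-0.93), NOP2 (-0.84) and RRP9 (-0.69). The value of RRP9 there rests on 65 reads against 87, and its counting interval on read shares, from -1.05 to -0.08, nearly reaches 0. The highest were GNL3 (0.29), FBL (0.10) and WDR12 (0.01).

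With PSPC1-Y523F alone, the lowest were NOLC1 (-0.73), NPM1 (-0.62) and MRTO4, and the highest were GRWD1 (0.68), RRP12 (0.66) and BYSL (0.498). With PSPC1-Y523F/PTK6, the 6 that were lower were NPM1 (-0.95), NOP16 (-0.73), NOLC1 (-0.71), MRTO4, NCL (-0.62) and DDX21 (-0.61). The abundant nucleolar proteins NPM1, NCL and DDX21 thus made up 3 of those 6. The median of the 6 genes of that role was -0.54 there and -0.48 with PSPC1. RRP12 (4.58), RRP9 (4.35) and RRP1B (3.08) were higher.

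**Figure D3:**
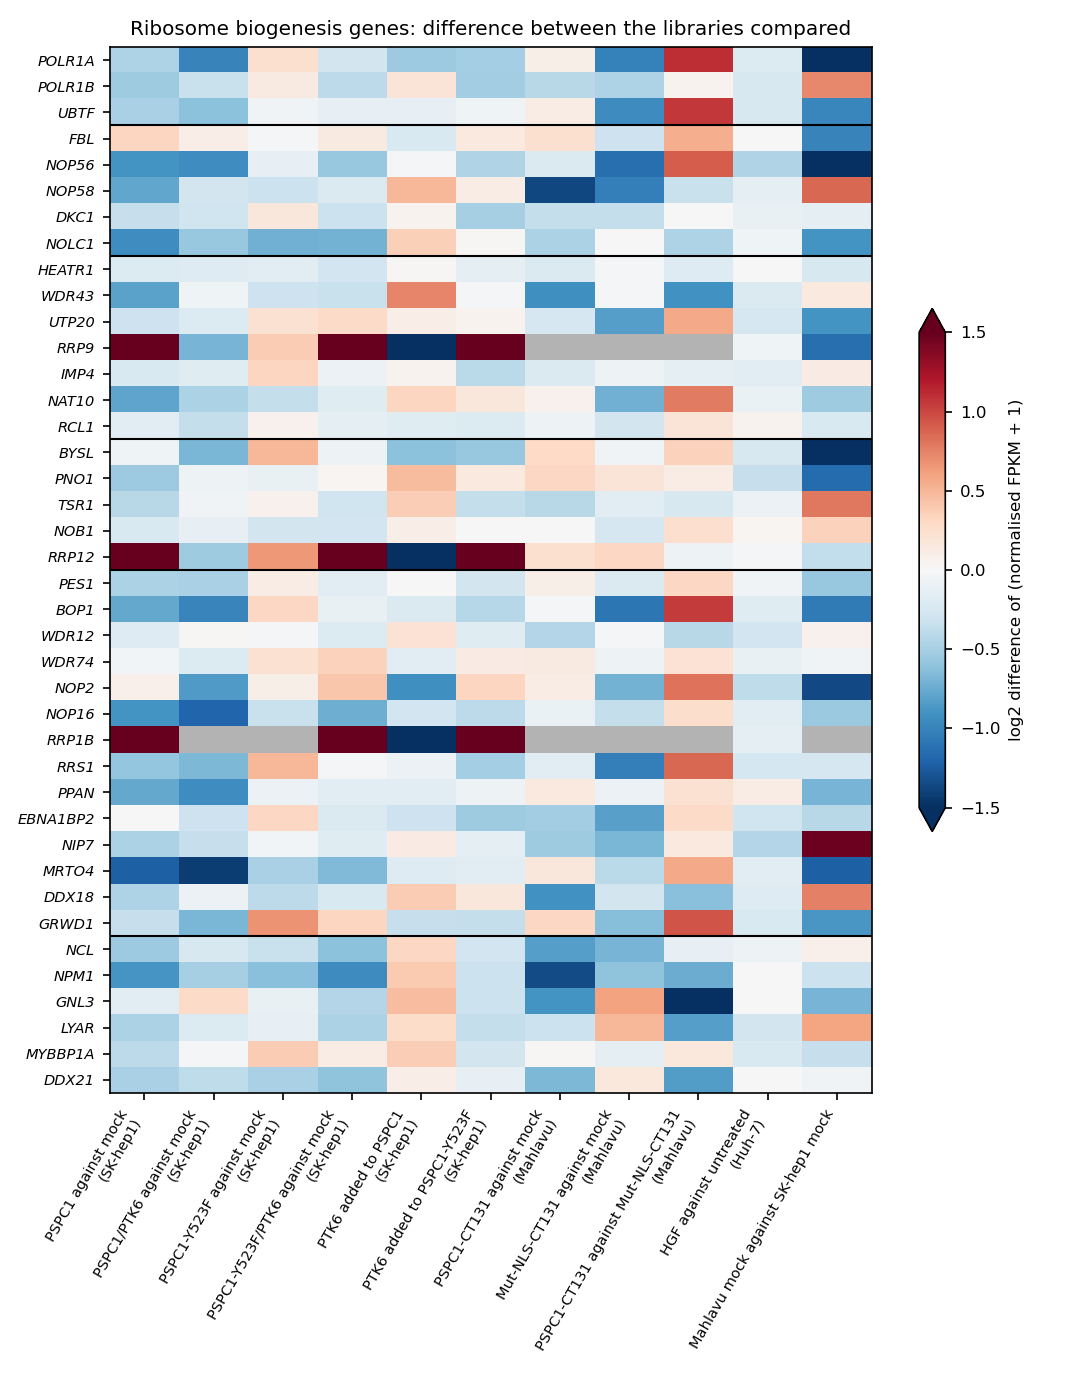
Log2 difference of normalized FPKM + 1 for the 40 genes (rows, with black lines between the 6 roles, in the order RNA polymerase I, snoRNP, small-subunit processome, late 40S, 60S and nucleolar) in 11 comparisons (columns). Blue is lower in the library named first, red is higher, the scale ends at -1.5 and 1.5, and grey marks genes under the filter. RRP9, RRP12 and RRP1B are dark red in the PSPC1 and PSPC1-Y523F/PTK6 columns, and the column of PSPC1-CT131 against Mut-NLS-CT131 holds both colours.

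Addition of PTK6 was compared within each form of PSPC1, and those comparisons share no library. The PSPC1 level also differed within each pair, being higher in the library with PTK6. Added to PSPC1, PTK6 went with a median of 0.03 against -0.02 for all genes, turning to -0.06 with TMM factors. Of the 40, 5 were lower beside 7.34% and 1 was higher beside 8.09%, and without the RRP genes 2 were lower and 1 higher. On FPKM as deposited the split was 3 higher and 4 lower. RRP9 (-4.51), RRP12 (-4.49), RRP1B (-3.44), NOP2 (-0.92) and BYSL (-0.62) were lower and WDR43 (0.73) was higher. The next highest were NOP58 (0.501) and PNO1 (0.47). Added to PSPC1-Y523F, PTK6 went with a median of -0.18 (-0.21 without the 3) against -0.03 for all genes. The RRP genes were the 3 that were higher, beside 10.4%, at 3.97 for RRP9, 3.92 for RRP12 and 2.84 for RRP1B, and 0 were lower, beside 9.28%. FPKM as deposited gave 3 higher and 4 lower, and FPKM scaled to an equal sum gave 3 and 5. The lowest were BYSL (-0.57), EBNA1BP2 (-0.53) and POLR1B (-0.52), under 1.5-fold.

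The Mahlavu libraries labelled PSPC1-CT131 and Mut-NLS-CT131 had lower levels of a part of the genes, and NOP58, NPM1 and NCL were lower with both. PSPC1-CT131 against mock gave a median of -0.19 (-0.21 without RRP12) against 0.01 for all genes over the 38 that passed the filter, with 7 lower beside 12.3% and 0 higher beside 11.2%. That median was -0.03 with TMM factors, where all genes had 0.02, and -0.34 on FPKM as deposited, where all genes had -0.24. The 7 were NOP58 (-1.37), NPM1 (-1.34), WDR43 (-0.92), DDX18 (-0.91), GNL3 (-0.90), NCL (-0.83) and DDX21 (-0.67). The highest were GRWD1 (0.31), PNO1 (0.31) and BYSL (0.30). Mut-NLS-CT131 against mock gave a median of -0.30 (-0.31 without RRP12) against 0.00, with 14 lower beside 11.3% and 1 higher beside 11.1%. The 8 farthest down were NOP56 (-1.13), BOP1 (-1.08), NOP58 (-1.03), RRS1 (-1.02), POLR1A (-1.01), UBTF (-0.95), UTP20 (-0.83) and EBNA1BP2 (-0.81), followed by NAT10, NOP2, NCL, NIP7, GRWD1 and NPM1. GNL3 was higher (0.60), and LYAR (0.50) and RRP12 (0.31) came next. With TMM factors, Mut-NLS-CT131 against mock had 8 lower and 1 higher and a median of -0.14, where all genes had 0.05. On FPKM as deposited its median was -0.29, where all genes had -0.095. Both Mahlavu comparisons against mock share the mock library.

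The direct comparison of both constructs, which uses no mock library, had genes in both directions, as all genes tested did. PSPC1-CT131 against Mut-NLS-CT131 had a median of 0.18 (0.20 without RRP12) against 0.01 for all genes. It fell to 0.00 on FPKM as deposited, where all genes had -0.13. On FPKM scaled to an equal sum it fell to -0.01, where all genes had -0.14. Of the 38 genes that passed the filter, 8 (21.1%) were higher beside 14.9% of all genes. The 6 lower ones (15.8%) stood beside 15.2%, close to the share of all genes. With TMM factors 9 were higher and 4 lower. POLR1A (1.10), UBTF (1.06), BOP1 (1.05), GRWD1 (0.94), NOP56 (0.91), RRS1 (0.86), NOP2 (0.81) and NAT10 (0.78) were higher with PSPC1-CT131. GNL3 (-1.503), WDR43 (-0.90), DDX21 (-0.83), LYAR (-0.82), NPM1 (-0.74) and DDX18 (-0.63) were lower.

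GC content of the transcript moved with the differences between both constructs, among these genes and among all genes. The 8 genes higher with PSPC1-CT131 had 50.9% to 65.2% GC in their longest GENCODE transcript, and the 6 lower ones had 40.3% to 43.4%. The GC ranges of all genes higher or lower in this comparison were not taken. Across the 38 genes, Spearman's rho between GC content and the difference was 0.69, and across all 12440 genes with a transcript it was 0.57. For PSPC1-CT131 against mock rho was 0.75 over the 38 genes and 0.57 over all genes, and for Mut-NLS-CT131 against mock it was -0.23 and -0.11. These points share their libraries, and genes are not independent replicates. With GC content and length taken out over all genes tested, the direct comparison had 7 higher genes, 6 of them among the 8 above, and 1 lower gene, GNL3, and its median was 0.06. The same step left 6 of the 7 lower genes of PSPC1-CT131 against mock, all but DDX21, with PNO1 now higher and a median of -0.21, and 13 of the 14 lower genes of Mut-NLS-CT131 against mock. In SK-hep1, rho over these genes was 0.58 for PSPC1-Y523F against mock, -0.53 for PSPC1/PTK6 against mock and -0.66 for PTK6 added to PSPC1, where all genes gave 0.25, -0.09 and -0.31. The part of GC content in these differences was not tested beyond this fit.

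HGF-treated and untreated Huh-7 cells differed by less than 1.5-fold in each of these genes. The count of 0 of 40 stands beside 1.81% of the 14262 genes tested that were higher and 1.45% that were lower. The median was -0.16, also without the 3 RRP genes, where all genes tested had 0.00. Of the 40 genes, 4 were above 0, beside 7047 of the 14262 genes tested. The counting interval of the read-share ratio lay wholly below 0 for 24 genes, wholly above 0 for 0 and held 0 for 16. The same count over all genes was not made. These intervals narrow as reads increase, so the count has no background to be read against. NOP56 (-0.45), NIP7 (-0.44) and NOP2 (-0.38) were lowest, and PPAN (0.11), RCL1 (0.05) and NOB1 (0.03) were highest. NIP7, which acts in 60S maturation and rRNA processing, stood at 40.2 FPKM untreated and 29.3 with HGF. The interval covers counting error only, and with 1 culture each the spread between cultures is unknown.

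The mock libraries of Mahlavu and SK-hep1 differed at 1.5-fold in more genes than any construct differed from its mock, among the 40 and among all genes tested. The median of the 39 genes was -0.37 (-0.35 without RRP9 and RRP12) in Mahlavu against SK-hep1, where all genes had -0.04, with 15 lower beside 28.7% and 6 higher beside 27%. TMM factors gave 2 higher and 20 lower and a median of -0.74, where all genes had 0.00, and on FPKM as deposited the median was -0.30, where all genes had 0.41. The farthest down were BYSL (-1.72), POLR1A (-1.498), NOP56 (-1.49), NOP2 (-1.36), MRTO4 (-1.22), PNO1 (-1.16), RRP9 (-1.13) and BOP1 (-1.07). NIP7 (1.47), NOP58 (0.86), TSR1 (0.79), DDX18 (0.76), POLR1B (0.72) and LYAR (0.59) were higher in Mahlavu. MYC, whose protein binds promoters of this gene group, stood at 169 FPKM in SK-hep1 mock and 28.2 in Mahlavu mock. Across the SK-hep1 constructs MYC stood at 175 with PSPC1, 255 with PSPC1/PTK6, 158 with PSPC1-Y523F and 143 with PSPC1-Y523F/PTK6.

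The 3 genes of RNA polymerase I differed among themselves. POLR1A, the largest subunit, stood at 85.5 FPKM in mock, 59.1 with PSPC1, 43.4 with PSPC1/PTK6, 101 with PSPC1-Y523F and 66.5 with PSPC1-Y523F/PTK6. It stood at 36.1 FPKM in Mahlavu mock, 32.9 with PSPC1-CT131 and 17.3 with Mut-NLS-CT131, and at 43.97 FPKM untreated and 37.6 with HGF in Huh-7. PSPC1-Y523F was thus the highest and PSPC1/PTK6 the lowest SK-hep1 library, and Mut-NLS-CT131 was the lowest in Mahlavu. UBTF, which bends the rDNA promoter for the polymerase, was lower with PSPC1/PTK6 (-0.61) and with Mut-NLS-CT131, while POLR1B, the second-largest subunit, was never 1.5-fold away from a control. Over the 8 SK-hep1 and Mahlavu libraries UBTF ranged from 25.9 to 86.3 FPKM and POLR1B from 14.7 to 48.1 FPKM.

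Among the 5 snoRNP genes, NOP56 and NOP58, the paired core proteins of box C/D particles, were below their control in all 7 comparisons by differing amounts. NOP56 stood at 198 FPKM in mock, 101 with PSPC1, 99.9 with PSPC1/PTK6, 179 with PSPC1-Y523F and 129 with PSPC1-Y523F/PTK6, and both wild-type PSPC1 libraries were about equally low. It stood at 75.6 FPKM in Mahlavu mock, 61.5 with PSPC1-CT131 and 35.8 with Mut-NLS-CT131, and at 197 FPKM untreated and 142 with HGF in Huh-7. NOP58 stood at 55.2 FPKM in mock, 30.2 with PSPC1, 47.1 with PSPC1/PTK6, 42.4 with PSPC1-Y523F and 44.5 with PSPC1-Y523F/PTK6, so the PSPC1 library was the lowest of the 5. It stood at 111 FPKM in Mahlavu mock, 41.4 with PSPC1-CT131 and 55.5 with Mut-NLS-CT131, both constructs being below mock, and at 73.1 FPKM untreated and 65.3 with HGF in Huh-7. NOLC1, a chaperone of snoRNPs, stood at 109.7 FPKM in mock, 53.8 with PSPC1, 74.5 with PSPC1/PTK6, 63.8 with PSPC1-Y523F and 62.8 with PSPC1-Y523F/PTK6, with mock the highest of the 5. It stood at 65.96 FPKM in Mahlavu mock, 43.8 with PSPC1-CT131 and 65.1 with Mut-NLS-CT131, and at 60.6 FPKM untreated and 57.8 with HGF in Huh-7. FBL and DKC1, the pseudouridine synthase of box H/ACA particles, were never 1.5-fold away from a control, and ranged from 125 to 388 and from 114 to 175 FPKM over the 8 SK-hep1 and Mahlavu libraries.

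**Figure D4:**
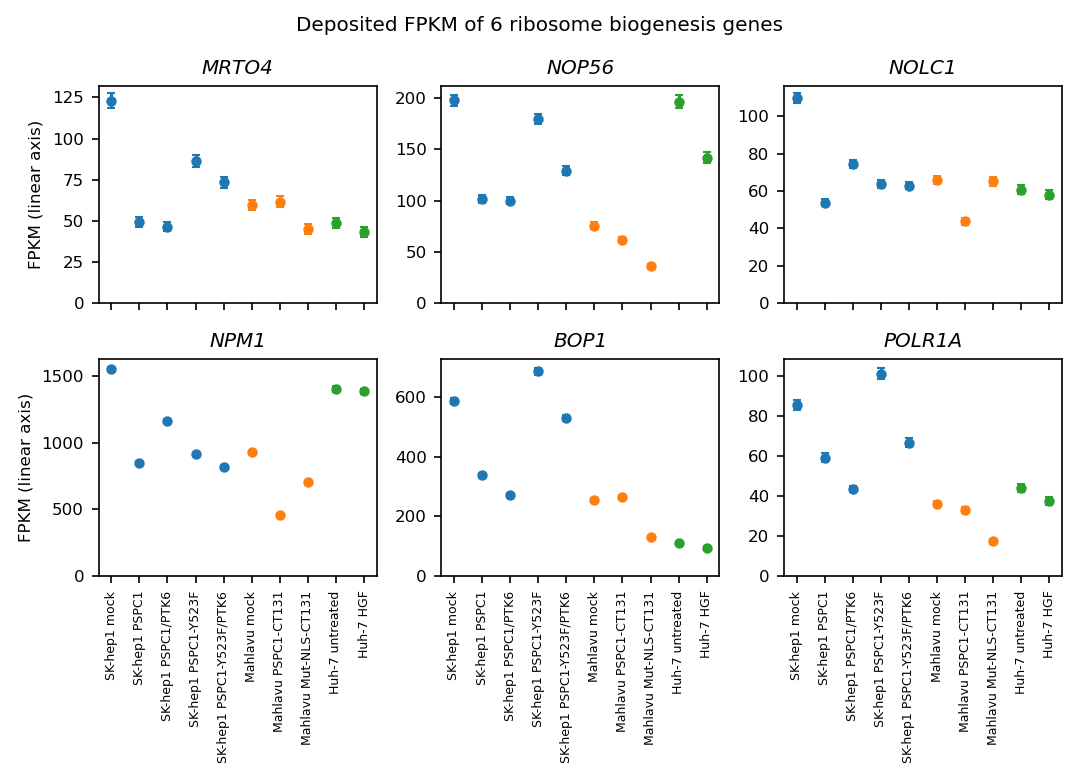
FPKM as deposited (linear axes from 0) of MRTO4, NOP56, NOLC1, NPM1, BOP1 and POLR1A in the 10 libraries, with 95% Wilson intervals of counting error as bars (often smaller than the point). Blue is SK-hep1, orange Mahlavu and green Huh-7. MRTO4, NOP56 and BOP1 are lowest in SK-hep1 with PSPC1 and PSPC1/PTK6, and NPM1 and NOLC1 are highest in SK-hep1 mock.

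In the small-subunit processome (7 genes), WDR43, a protein of the subcomplex that binds the precursor early, stood at 53.6 FPKM in mock, 28.8 with PSPC1, 53.01 with PSPC1/PTK6, 41.5 with PSPC1-Y523F and 38.9 with PSPC1-Y523F/PTK6. Of the 4 constructs, PSPC1 alone was 1.5-fold below mock. It stood at 67.8 FPKM in Mahlavu mock, 32.7 with PSPC1-CT131 and 66.6 with Mut-NLS-CT131, and at 55.6 FPKM untreated and 47.6 with HGF in Huh-7, so PSPC1-CT131 was the low Mahlavu library. NAT10, an RNA acetyltransferase, was lower with PSPC1 and with Mut-NLS-CT131 (-0.72), and UTP20 was lower with Mut-NLS-CT131. NAT10 ranged from 47.5 to 100.4 and UTP20 from 7.82 to 24.1 FPKM over the 8 SK-hep1 and Mahlavu libraries. HEATR1, IMP4 and RCL1 were never 1.5-fold away from a control, and ranged from 19.8 to 29.3, 139 to 215 and 8.72 to 13.5 FPKM.

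Of the 5 late 40S factors, BYSL and RRP12 were 1.5-fold away from a control somewhere. BYSL, a binding factor of 40S precursors, stood at 66.6 FPKM in mock, 61.5 with PSPC1, 42.9 with PSPC1/PTK6, 95.8 with PSPC1-Y523F and 60.1 with PSPC1-Y523F/PTK6. The PSPC1/PTK6 library was the lowest and PSPC1-Y523F the highest of the 5. It stood at 24.9 FPKM in Mahlavu mock, 25.5 with PSPC1-CT131 and 22.7 with Mut-NLS-CT131, and at 24.2 FPKM untreated and 20.1 with HGF in Huh-7, and neither line showed a 1.5-fold difference. PNO1, TSR1 and NOB1, the endonuclease that trims the end of 18S rRNA, ranged from 13.7 to 24.6, 45.2 to 119.5 and 76.5 to 132 FPKM over the 8 SK-hep1 and Mahlavu libraries.

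The 14 genes of 60S assembly had the lowest median of the 6 roles with PSPC1/PTK6 (-0.67), near the -0.61 of the 3 RNA polymerase I genes. There 7 of the 13 that passed the filter were lower, beside 12.8% of all genes. With PSPC1 their median was -0.47, with 4 of 14 lower beside 8.66% of all genes. In the wider list, 44 other 60S genes had medians of -0.29 with PSPC1/PTK6 and -0.36 with PSPC1, with 10 lower in each. MRTO4 stood at 123 FPKM in mock, 49.1 with PSPC1, 46.3 with PSPC1/PTK6, 86.3 with PSPC1-Y523F and 73.3 with PSPC1-Y523F/PTK6, and the libraries with wild-type PSPC1 were the lowest. It stood at 59.7 FPKM in Mahlavu mock, 61.5 with PSPC1-CT131 and 44.97 with Mut-NLS-CT131, and at 48.5 FPKM untreated and 43.1 with HGF in Huh-7. NOP16, a nucleolar protein of early 60S precursors, stood at 64.4 FPKM in mock, 32.7 with PSPC1, 29.7 with PSPC1/PTK6, 50.1 with PSPC1-Y523F and 35.1 with PSPC1-Y523F/PTK6, so mock and PSPC1-Y523F were above the other 3. It stood at 51.8 FPKM in Mahlavu mock, 43.3 with PSPC1-CT131 and 39.2 with Mut-NLS-CT131, and at 24.4 FPKM untreated and 21.7 with HGF in Huh-7. BOP1 forms the PeBoW complex of 60S maturation with PES1 and WDR12. BOP1 stood at 587 FPKM in mock, 339 with PSPC1, 273 with PSPC1/PTK6, 687 with PSPC1-Y523F and 530.1 with PSPC1-Y523F/PTK6, with both wild-type PSPC1 libraries below the other 3. It stood at 254 FPKM in Mahlavu mock, 264 with PSPC1-CT131 and 129.8 with Mut-NLS-CT131, and at 110.3 FPKM untreated and 95.5 with HGF in Huh-7. Its partners were never 1.5-fold away from a control, and over the 8 SK-hep1 and Mahlavu libraries PES1 ranged from 87.6 to 156 and WDR12 from 29.7 to 47.4 FPKM.

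NOP2, a methyltransferase of 28S rRNA, stood at 60.6 FPKM in mock, 62.04 with PSPC1, 35.3 with PSPC1/PTK6, 63.8 with PSPC1-Y523F and 78.5 with PSPC1-Y523F/PTK6, so PSPC1/PTK6 was the low SK-hep1 library. It stood at 29.04 FPKM in Mahlavu mock, 26.5 with PSPC1-CT131 and 17.2 with Mut-NLS-CT131, and at 62.7 FPKM untreated and 47.6 with HGF in Huh-7. PPAN, the human homolog of a yeast 60S factor, stood at 10.4 FPKM in mock, 5.21 with PSPC1, 6.18 with PSPC1/PTK6, 8.99 with PSPC1-Y523F and 8.25 with PSPC1-Y523F/PTK6, with the lowest levels under wild-type PSPC1. It stood at 9.48 FPKM in Mahlavu mock, 7.88 with PSPC1-CT131 and 8.06 with Mut-NLS-CT131, and at 1.54 FPKM untreated and 1.80 with HGF in Huh-7. GRWD1, a chaperone of a large-subunit ribosomal protein, stood at 87.04 FPKM in mock, 65.6 with PSPC1, 54.7 with PSPC1/PTK6, 142 with PSPC1-Y523F and 107 with PSPC1-Y523F/PTK6. PSPC1-Y523F was the highest and PSPC1/PTK6 the lowest. GRWD1 stood at 54.99 FPKM in Mahlavu mock, 61.7 with PSPC1-CT131 and 35.05 with Mut-NLS-CT131, and at 36.04 FPKM untreated and 30.6 with HGF in Huh-7, with Mut-NLS-CT131 the lowest Mahlavu library. The remaining 60S genes RRS1, EBNA1BP2, NIP7 and DDX18 were lower in 1 or 2 of the 7 comparisons against a control, and WDR74, which was in none, ranged from 41.7 to 55.97 FPKM over the 8 SK-hep1 and Mahlavu libraries.

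Among the 6 nucleolar proteins of several functions, NPM1 was the most abundant of the 40 genes in all 10 libraries, with 15.1% to 35.2% of their summed FPKM. NPM1, a histone and ribosome chaperone, stood at 1550.1 FPKM in mock, 844 with PSPC1, 1158 with PSPC1/PTK6, 911 with PSPC1-Y523F and 815 with PSPC1-Y523F/PTK6, with mock the highest. It stood at 926 FPKM in Mahlavu mock, 455 with PSPC1-CT131 and 701 with Mut-NLS-CT131, and at 1399.6 FPKM untreated and 1382 with HGF in Huh-7, and it was 1.5-fold lower in 5 of the 7 comparisons against a control, the most of any of the 40 genes. NCL, which binds precursor rRNA, stood at 556 FPKM in mock, 371 with PSPC1, 430.1 with PSPC1/PTK6, 438 with PSPC1-Y523F and 349 with PSPC1-Y523F/PTK6, again with mock the highest. It stood at 507 FPKM in Mahlavu mock, 306 with PSPC1-CT131 and 324 with Mut-NLS-CT131, and at 638 FPKM untreated and 595 with HGF in Huh-7. GNL3, a GTPase of the nucleolus, stood at 85.5 FPKM in mock, 72.9 with PSPC1, 104 with PSPC1/PTK6, 77.1 with PSPC1-Y523F and 58.6 with PSPC1-Y523F/PTK6, where no construct was 1.5-fold away from mock. It stood at 60.3 FPKM in Mahlavu mock, 28.8 with PSPC1-CT131 and 87.1 with Mut-NLS-CT131, so the constructs lay on opposite sides of mock, and at 120.3 FPKM untreated and 119.6 with HGF in Huh-7. DDX21, an RNA helicase, stood at 50.3 FPKM in mock, 34.6 with PSPC1, 40.7 with PSPC1/PTK6, 34.5 with PSPC1-Y523F and 29.9 with PSPC1-Y523F/PTK6, with mock the highest. It stood at 57.3 FPKM in Mahlavu mock, 32.02 with PSPC1-CT131 and 62.2 with Mut-NLS-CT131, and at 46.1 FPKM untreated and 45.4 with HGF in Huh-7. LYAR and MYBBP1A were never 1.5-fold away from a control, and ranged from 18.1 to 71.2 and 113 to 200.5 FPKM over the 8 SK-hep1 and Mahlavu libraries.

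Over the 7 comparisons against a control, 24 of the 40 genes were lower in at least 1, 5 were higher in at least 1 and 14 were in none, beside 29.8%, 28.5% and 49.1% of the 16615 genes tested in at least 1 of them. Those higher were RRP9, RRP12, RRP1B, GRWD1 and GNL3. The comparisons share mock libraries, so these counts are not independent of each other.

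A wider list of 121 other ribosome biogenesis genes had medians on the same side as the 40 with PSPC1 (-0.32, with 20 of 120, 16.7%, lower and 4 higher) and with PSPC1/PTK6 (-0.23, with 25 of 119, 21%, lower and 2 higher), beside 8.66% and 12.8% of all genes lower. With PSPC1 the lower ones included NOC4L, SBDS, NIFK, RPF2 and UTP18, and 3 of the 4 higher ones were RRP1, RRP7A and RRP36. With PSPC1-Y523F the median was -0.07 with 10 lower (8.4%, beside 9.33% of all genes) and 5 higher of 119, and with PSPC1-Y523F/PTK6 it was -0.20 with 11 lower (9.17%, beside 7.1%) and 5 higher of 120. With PSPC1-CT131 it was -0.22 with 24 lower (20%, beside 12.3%) and 2 higher of 120, among the lower ones RSL24D1, BRIX1, DCAF13 and CEBPZ. With Mut-NLS-CT131 it was -0.12 with 9 lower (7.5%, under the 11.3% of all genes) and 1 higher, UTP14A and EXOSC4 being farthest down. With HGF it was -0.09, and 0 of 120 were 1.5-fold away.

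Lists outside ribosome biogenesis differed in how far they resembled the 40 genes. Genes of cytosolic ribosomal proteins had a median of 0.04 with PSPC1 (2 of 78 lower and 3 higher) and -0.05 with PSPC1/PTK6 (4 of 77 lower and 1 higher). They had -0.23 with PSPC1-Y523F (10 of 79 lower and 1 higher), -0.33 with PSPC1-Y523F/PTK6 (10 of 78 lower and 2 higher), -0.43 with PSPC1-CT131 (23 of 78 lower) and -0.32 with Mut-NLS-CT131 (4 of 78 lower). With Mut-NLS-CT131, 76 of the 78 were below 0, beside 49.6% of all genes tested. With HGF their median was 0.05. Genes of SR proteins and hnRNPs, which act in splicing, had a median of -0.42 with PSPC1 (11 of 31 lower), -0.51 with PSPC1/PTK6 (14 lower), -0.31 with PSPC1-Y523F (7 lower and 1 higher) and -0.38 with PSPC1-Y523F/PTK6 (7 lower). They had -0.48 with PSPC1-CT131 (11 lower) and -0.50 with Mut-NLS-CT131 (13 lower and 1 higher). Beside these counts, the share of all genes tested that was lower was 8.66% with PSPC1 and 12.8% with PSPC1/PTK6. It was 9.33% with PSPC1-Y523F, 7.1% with PSPC1-Y523F/PTK6, 12.3% with PSPC1-CT131 and 11.3% with Mut-NLS-CT131. The share that was higher was, in the same order, 9.57%, 12.4%, 9.33%, 8.19%, 11.2% and 11.1%.

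Promoters were read from RefSeq (GRCh38.p14) for what the 40 genes share besides their function. A window of 250 bases before and 50 after the start was given for 33 of the 40 genes. Windows were searched for CACGTG, the E-box letters that MYC and related factors bind, which read the same on both strands. The letters stood in the window of 17 of the 33 genes (51.5%), against 8.77% of all 27305 genes with a window and 7.26% of all 35116 windows. They stood in 4 of 63 ribosomal protein genes and 7 of 28 SR and hnRNP genes. In 16 of the 17 genes a match began between base -64 and base 36, counted from the start. In 6 of the 17 every match began before the start, and in the others a match began after it. The median GC content was 64.3% for the members' windows and 58.7% for all windows, and the part of GC content in the higher share was not tested. A match is a description of letters, and no binding was measured.

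Stretches of 90 bases that hold the letters before the start, or ending on the start base in RRP9, are shown for 5 genes, 3 of the small-subunit processome and 2 nucleolar proteins. They do not show the matches that began after the start, which most of the genes with a match had. Each is written 5′ to 3′ on the strand of its gene in lower case with the E-box letters in capitals.
DDX21 (chr10:68956557-68956646, plus strand): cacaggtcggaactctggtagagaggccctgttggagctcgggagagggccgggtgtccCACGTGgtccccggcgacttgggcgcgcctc
NAT10 (chr11:34105539-34105628, plus strand): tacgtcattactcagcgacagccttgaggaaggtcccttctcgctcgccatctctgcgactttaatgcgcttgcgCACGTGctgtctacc
UTP20 (chr12:101280015-101280104, plus strand): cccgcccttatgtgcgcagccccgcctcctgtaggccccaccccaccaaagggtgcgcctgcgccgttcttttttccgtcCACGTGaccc
LYAR (chr4:4290022-4290111, minus strand): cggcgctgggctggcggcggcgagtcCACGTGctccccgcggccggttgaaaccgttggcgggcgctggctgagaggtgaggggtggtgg
RRP9 (chr3:51941904-51941993, minus strand): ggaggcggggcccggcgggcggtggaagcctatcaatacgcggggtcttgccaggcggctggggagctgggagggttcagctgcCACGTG

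Genes with and without the letters lay on the same side in the comparisons with wild-type PSPC1. Without the RRP genes, the 16 with a match had a median difference of -0.35 with PSPC1 and -0.26 with PSPC1/PTK6, and the 16 without had -0.47 and -0.34. With PSPC1-Y523F the medians were 0.03 with a match and -0.05 without, and with PSPC1-Y523F/PTK6 they were -0.15 and -0.29. With HGF the medians were -0.19 and -0.14. In Mahlavu they were -0.03 and -0.22 with PSPC1-CT131, and -0.18 and -0.41 with Mut-NLS-CT131. Between the mock libraries, Mahlavu against SK-hep1, they were -0.55 with a match and -0.19 without, where the genes with a match lay lower. These differences were not tested.

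Several genes share sequence or reads with other features. In GENCODE 29, 27 snoRNA genes lie inside 8 of the 40 genes on the same strand, 6 of them in GNL3 and 5 in NOP56, and no such snoRNA gene had more than 4 reads in any SK-hep1 or Mahlavu library. More than 50% of the exonic bases overlap another gene in PPAN (59.8%, mostly the readthrough gene PPAN-P2RY11) and NOP2 (54.4%, mostly a gene annotated as AC006064.6), so their counts are uncertain, since the kit named in the labels does not mark strand. Pseudogenes are annotated for 7 of the 40, with 45 for NPM1, and their summed reads were at most 0.461% of the reads of the parent gene, for PES1.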

How the data were processed

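RNA was read from 10 libraries, 1 per condition, grouped by the sample labels. The labels describe poly-A selection, while the study's methods name rRNA depletion. The submitters' processing notes name TopHat2 2.0, HTSeq 0.6.1 and GRCh38.p12, and the study's methods name hg18. The positions listed equal GRCh38 positions for 97.6% of the genes shared with GENCODE 29. The authors deposited raw read counts per gene and FPKM for the 8 SK-hep1 and Mahlavu libraries, and FPKM only for Huh-7. After 8 lines with no value were left out, each table lists 58302 genes.

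The deposited FPKM follow from the counts and 1 length per gene, and dividing the Huh-7 FPKM by what 1 read is worth gave whole reads (100% of values within 0.05 reads), with totals of 16374128 and 15245935 reads. Because these tables were made apart, Huh-7 levels are only set beside the others.

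FPKM were quantile normalized over the 8 libraries and over both Huh-7 libraries (Python 3.11.15, numpy 2.4.6, pandas 2.3.3), with a pseudocount of 1 FPKM. The procedure was run on simulated data with large changes and counting error only, which hold no spread between cultures. With 1 library per condition no test was run. Counting intervals (95%, Wilson for levels, exact binomial for ratios of read shares, scipy 1.17.1) cover counting error only, since reads carry no molecular identifiers. TMM factors came from edgeR 4.0.16. In each comparison at most the 8 farthest genes per direction are named, or the 3 highest and 3 lowest, and values in every library are given for genes named in 2 or more comparisons against a control. The genes, roles and lists were chosen with earlier results of these data known.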

Additional observations from a re-analysis of the deposited data

Results flagged for a closer look

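RRP9, RRP12 and RRP1B lay on opposite sides when PTK6 was added to PSPC1 and when it was added to PSPC1-Y523F. The log2 difference of RRP9 was -4.51 with PSPC1 and 3.97 with PSPC1-Y523F. RRP12 had -4.49 and 3.92, and RRP1B had -3.44 and 2.84. Each value compares 1 library with 1 library, so the difference between both forms of PSPC1 was not tested. The same 2 libraries that are high for these genes, PSPC1 and PSPC1-Y523F/PTK6, are high for the other 5 RRP-named genes and for MT-RNR1, whose part in these values was not tested.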

How the results depend on the processing

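No paired analysis was possible because each condition had 1 library, and for the same reason no library could be left out. Of 119 counts of genes at 1.5-fold under other settings, 101 stayed within 1.5 times the main count, and of 108 medians 106 stayed within the order-statistic interval of the main median over the genes. None turned beyond that interval to the other side of 0. The interval takes the genes of 1 pair of libraries as independent, and it can be wide. For PSPC1-CT131 against mock it ran from -0.41 to 0.06, so the -0.03 with TMM factors counted as within it. The counts add both directions. Between the mock libraries, 6 higher and 15 lower became 2 and 20 with TMM factors, which counted as within 1.5 times. With HGF the count was 0 in every setting. The median of PSPC1-Y523F/PTK6 against mock moved from -0.19 to -0.29 on FPKM as deposited and to -0.31 on FPKM scaled to an equal sum, settings that also moved the median of all genes to -0.13 and -0.14.

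With a 2-fold threshold the counts were 4 for PSPC1, 3 for PSPC1/PTK6, 0 for PSPC1-Y523F and 3 for PSPC1-Y523F/PTK6 against mock, 3 for PTK6 added to PSPC1, 2 for PSPC1-CT131 and 5 for Mut-NLS-CT131 against mock, 4 for PSPC1-CT131 against Mut-NLS-CT131 and 9 between the mock libraries. With GC content and length taken out, the counts were 1 for PSPC1-Y523F against mock, 5 for PTK6 added to PSPC1-Y523F (3 by the main count) and 8 for PSPC1-CT131 against Mut-NLS-CT131. FPKM as deposited gave 7 and FPKM scaled to an equal sum gave 8 for PTK6 added to PSPC1-Y523F, and the latter gave 11 for PSPC1-CT131 against mock. TMM factors gave 9 for Mut-NLS-CT131 against mock. Without RRP9, RRP12 and RRP1B, a setting chosen after seeing the data, PTK6 added to PSPC1 kept 3 and PTK6 added to PSPC1-Y523F kept 0. Apart from these settings' own construction, the cause was not tested. The share of all genes was counted only at 1.5-fold in the main setting. Counts under any other setting, here and above, therefore have no background to be read against.

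On FPKM as deposited or scaled to an equal sum, the median of all genes also moved by over 0.1 in 6 other comparisons, from -0.26 for PSPC1-CT131 against mock to 0.48 between the mock libraries. In the 6 low SK-hep1 and Mahlavu libraries RRP1B rests on 33 to 69 reads and RRP9 on 24 to 109, and PPAN has 24 and 26 reads in Huh-7.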
